A study of Mus musculus with 6 samples.

Results

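The genes described here are the lectin chaperones and prolyl isomerases of the endoplasmic reticulum (ER) in activated mouse B cells. They are *Canx*, *Calr* and *Uggt1* of the calnexin cycle, and the isomerase genes *Ppib*, *Ppic*, *Fkbp2*, *Fkbp7*, *Fkbp11* and *Fkbp14*. The members were chosen by name for the ER function of their proteins, at a time when earlier results of these data were known, and are 9 of the 54446 genes measured. The rule that defines them uses none of their values. Naive B cells were taken from spleens of *Tent5c* KO mice and WT littermates of a mixed C57BL/6J X CBA background. TENT5C is a cytoplasmic poly(A) polymerase that lengthens mRNA tails. The methods of the study give an age of 12 to 15 weeks. All cells, those of the WT control included, were activated for 7 days. The activators were IL-4 at 20 ng/ml and LPS at 20 µg/ml, under which B cells proliferate and turn into antibody-secreting cells. Total RNA without ribosomal RNA was sequenced by strand in 3 libraries labelled KO and 3 labelled WT. Each replicate number was 1 batch and held 1 KO and 1 WT library from littermates, called pairs 1, 2 and 3 below. The labels name no sorting after activation, so RNA is that of the whole culture, and fewer cells of a type and less RNA per cell cannot be told apart.

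Libraries held 5393558 to 6793520 fragments on genes. The WT library of pair 3 had the fewest fragments and the largest share of Ig fragments, 3.31% against 1.03% to 2.52% in the others. The transcript of *Tent5c*, the gene knocked out, was lower in the library labelled KO in 1 of 3 pairs (1993, 993 and 1170 normalized counts in pairs 1, 2 and 3, against 1255, 767 and 1584 for WT). Its log2 fold change was 0.20 (SE 0.19, adjusted *p* = 0.970 from limma), so the level of this transcript does not check the genotype labels. The libraries are therefore named by their labels throughout, and every direction given here rests on those labels. Of 201 Ig genes tested, 197 had a log2 fold change below 0 (median −0.78), against 49.8% of all genes tested. This count was not used to check the labels. Of 8 B cell markers, 8 were above a mean of 10 normalized counts, and their summed level lay from 51195 to 59539 in the libraries labelled KO and from 56747 to 58672 in those labelled WT. Of these 8, 4 had a log2 fold change below 0 and 4 above 0, the highest being 0.16 (SE 0.13) for *Pax5*. *Cd79a* and *Cd74* were lower in KO in every pair, against 13.1% of all genes tested. Both were lower at an unadjusted *p* under 0.05 in limma, against 3.03%, with log2 fold changes of −0.21 (SE 0.08) and −0.18 (SE 0.07). The groups of *Cd79a* did not overlap, against 3.44% of all genes tested, but only by the gap between 1398 and 1405 normalized counts. The part of these markers in the values below was not tested. The summed T cell markers (10 genes, 1 above that mean) lay from 29.5 to 60.8 normalized counts in KO and from 24.0 to 116 in WT, and the myeloid markers (10 genes, 2 above it) from 21.9 to 142 and from 66.9 to 92.7. *S100a8*, *S100a9* and *Elane* were at 0 throughout. The 7 erythroid markers (5 at 0 throughout) and the 8 stromal markers (4 at 0 throughout) summed to at most 4.72 and 5.66 normalized counts.

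Many proteins that receive N-linked glycans in the ER are folded with the help of the calnexin cycle. Glucosidases trim the glycan, the lectins calnexin and calreticulin hold the trimmed form, and UGGT1 puts a glucose back on chains that are not yet folded so that they are bound again. Prolyl isomerases of the cyclophilin and FKBP families turn peptide bonds before proline between the cis and trans forms, a slow step in folding of proteins such as antibody domains and collagen. Plasma cells are known for a large ER rich in these proteins, and the unfolded protein response is known to act through ER stress response elements in promoters of such genes.

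Promoter sequences are shown for the members in which 1 of these elements was found, because the members are genes of the ER folding machinery whose levels are set side by side below. Windows of 300 bases, from 250 before to 50 after each RefSeq transcription start on GRCm38.p6, were held for 8 of the 9 members. Both strands were searched for 3 motifs. The ER stress response element (ERSE) was taken as CCAAT and CCACG with 9 bases between them, ERSE-II as ATTGG and CCACG with 1 base between them, and the core of the unfolded protein response element (UPRE) as TGACGTG. ERSE and ERSE-II share the letters CCACG. Capitals mark the matched motif, and each sequence is on the strand of the gene, which is the minus strand in all 3.
*Canx* (GRCm38.p6, chr11:50325760-50325858): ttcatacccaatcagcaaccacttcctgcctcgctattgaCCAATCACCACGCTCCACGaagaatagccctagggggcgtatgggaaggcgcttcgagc
*Calr* (GRCm38.p6, chr8:84847035-84847133): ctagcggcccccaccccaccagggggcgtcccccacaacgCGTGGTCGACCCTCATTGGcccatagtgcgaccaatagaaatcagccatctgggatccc
*Fkbp11* (GRCm38.p6, chr15:98727581-98727667): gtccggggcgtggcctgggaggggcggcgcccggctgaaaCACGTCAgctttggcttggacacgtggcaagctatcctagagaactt

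Both lectin chaperones thus held a full ERSE. It lay from -145 to -127 relative to the start of *Canx*, on the strand of the gene, and from -162 to -144 in *Calr*, on the opposite strand. The motif was found in 39 of all 32851 windows (0.119%), or in 37 of 27025 genes (0.137%). The window of *Fkbp11* is that of the second of its 2 starts, which lies inside the gene, and it held the UPRE core on the opposite strand, from 1 to 7, where the strand shown reads its reverse complement. That core was found in 2.01% of all windows, and ERSE-II, found in 0.0365%, in no member. No motif was found in the windows of *Uggt1*, *Ppib*, *Fkbp2* (3 windows), *Fkbp7* or *Fkbp14* (2 windows), and a match of letters shows no binding.

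The 6 members with enough fragments for a test, *Canx*, *Calr*, *Uggt1*, *Ppib*, *Fkbp2* and *Fkbp11*, had lower values in the library labelled KO than in its WT littermate in every pair, which held for 13.1% of the 12322 genes tested. The estimated KO level was lowest for *Fkbp11* (45.8% of WT), *Ppib* (73.8%) and *Calr* (80.2%) and nearest to WT for *Uggt1* (95.8%). None of these differences passed 0.05 after adjustment over all genes in limma, and that of *Ppib* did in DESeq2. *Ppic*, *Fkbp7* and *Fkbp14* had too few fragments for a comparison.

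Normalized counts are fragments per gene divided by a size factor of the library, and positions are on GRCm38. *Canx* (ENSMUSG00000020368, chromosome 11, 50293961 to 50325673, minus strand) encodes calnexin, the lectin anchored in the ER membrane. The libraries labelled KO held 5478, 5750 and 6034 normalized counts of it in pairs 1, 2 and 3, and the libraries labelled WT held 6077, 5867 and 6723. The 2 groups overlapped, as the KO library of pair 3 exceeded the WT library of pair 2, and each KO library was below its littermate. The log2 fold change of KO against WT was −0.11 (SE 0.06, 95% interval −0.26 to 0.04, adjusted *p* = 0.970 from limma), on the scale of log2(normalized count + 1).

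*Calr* (ENSMUSG00000003814, chromosome 8, 84841850 to 84846934, minus strand) encodes calreticulin, the soluble lectin, which also binds calcium. Levels were 6899, 6027 and 7773 normalized counts in libraries labelled KO and 7875, 7717 and 10315 in the libraries labelled WT. The KO library of pair 3 was just above the WT library of pair 2, so that the groups overlapped, while every pair differed in 1 direction. KO levels were 87.6%, 78.1% and 75.4% of WT in pairs 1, 2 and 3. The log2 fold change was −0.32 (SE 0.07, 95% interval −0.48 to −0.15), with an unadjusted *p* of 0.00293 and an adjusted *p* of 0.737 from limma over 12322 genes. It did not pass 0.05 in DESeq2 either (adjusted *p* = 0.117).

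*Uggt1* (ENSMUSG00000037470, chromosome 1, 36140027 to 36244720, minus strand) encodes the glucosyltransferase that senses unfolded glycoproteins. The libraries labelled KO held 1573, 1581 and 1528 normalized counts and the WT libraries 1582, 1600 and 1709. The groups did not overlap, but only by the gap between 1581.3 and 1581.9 normalized counts. Its log2 fold change of −0.06 (SE 0.06, 95% interval −0.21 to 0.09, adjusted *p* = 0.970 from limma) was the nearest to 0 of the members tested, and without pair 3 it was −0.01.

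*Ppib* (ENSMUSG00000032383, chromosome 9, 66060222 to 66066623, plus strand) encodes cyclophilin B, the cyclophilin of the ER lumen, which is known to work with the hydroxylase P3H1 and with CRTAP on collagen. Normalized counts were 1773, 1697 and 1772 under the label KO and 2308, 2060 and 2796 under the label WT. Every KO library was below every WT library. The spread was 2.50% of the mean in the KO group and 15.7% in the WT group, so that most of the spread between pairs lay in the WT libraries. KO levels were 76.8%, 82.4% and 63.4% of WT. The 95% interval from counting alone (exact Clopper-Pearson) was below 100% in 3 of 3 pairs, the nearest to it being 77.2% to 87.9% in pair 2. *Ppib* was the 1 member that passed 0.05 after adjustment in a tool, with a log2 fold change of −0.44 in DESeq2 (SE 0.11, adjusted *p* = 0.0494). In limma the log2 fold change was −0.44 (SE 0.08, 95% interval −0.64 to −0.24) with an unadjusted *p* of 0.00156 and an adjusted *p* of 0.693, and in edgeR the adjusted *p* was 0.755. Without pair 3 the log2 fold change in limma was −0.33 (adjusted *p* = 0.335).

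*Ppic* (ENSMUSG00000024538, chromosome 18, minus strand) encodes cyclophilin C, another cyclophilin of the secretory pathway. The KO libraries held 3, 4 and 1 fragments and the WT libraries 1, 5 and 4. These numbers lie around the 3 fragments that a count of 0 allows, and no difference was detectable at this depth.

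*Fkbp2* (ENSMUSG00000056629, chromosome 19, 6977741 to 6980501, minus strand) encodes a small soluble FKBP of the ER. In the libraries labelled KO its level was 91.5, 87.7 and 85.4 normalized counts, and in the WT libraries 106, 99.3 and 108. Every KO library was below every WT library, with a log2 fold change of −0.24 (SE 0.13, 95% interval −0.55 to 0.06, adjusted *p* = 0.970 from limma). With 90 to 112 fragments per library, the interval from counting included 100% in each pair.

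*Fkbp11* (ENSMUSG00000003355, chromosome 15, 98724366 to 98728198, minus strand) encodes an FKBP of the ER that is known from secretory cells, plasma cells among them. The 3 KO libraries held 72.7, 42.9 and 32.7 normalized counts and the 3 WT libraries 116, 56.5 and 167. The highest and lowest libraries of each group differed by more than 2-fold. The groups overlapped between the KO library of pair 1 and the WT library of pair 2. KO levels were 62.6%, 76.0% and 19.5% of WT in pairs 1, 2 and 3. The log2 fold change was −1.13 (SE 0.36, 95% interval −2.0 to −0.25), with an unadjusted *p* of 0.0193 and an adjusted *p* of 0.970 from limma. Pair 3 decided its size, as it was −0.53 without that pair (adjusted *p* = 0.991 from limma).

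*Fkbp7* (ENSMUSG00000002732, chromosome 2, 76663044 to 76673116, minus strand) and *Fkbp14* (ENSMUSG00000038074, chromosome 6, 54577604 to 54597308, minus strand) encode FKBPs of the ER lumen that bind calcium. *Fkbp7* was at 6.61, 4.77 and 10.9 normalized counts under the label KO and at 11.3, 11.5 and 10.8 under the label WT. It lay just below the filter for testing, a mean of at least 10, with a mean of 9.32. *Fkbp14* had 4, 6 and 3 fragments under the label KO and 7, 1 and 6 under the label WT. Both were lower in 2 of 3 pairs, and each interval from counting included 100%. Neither difference was detectable at this depth.

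**Figure D1:**
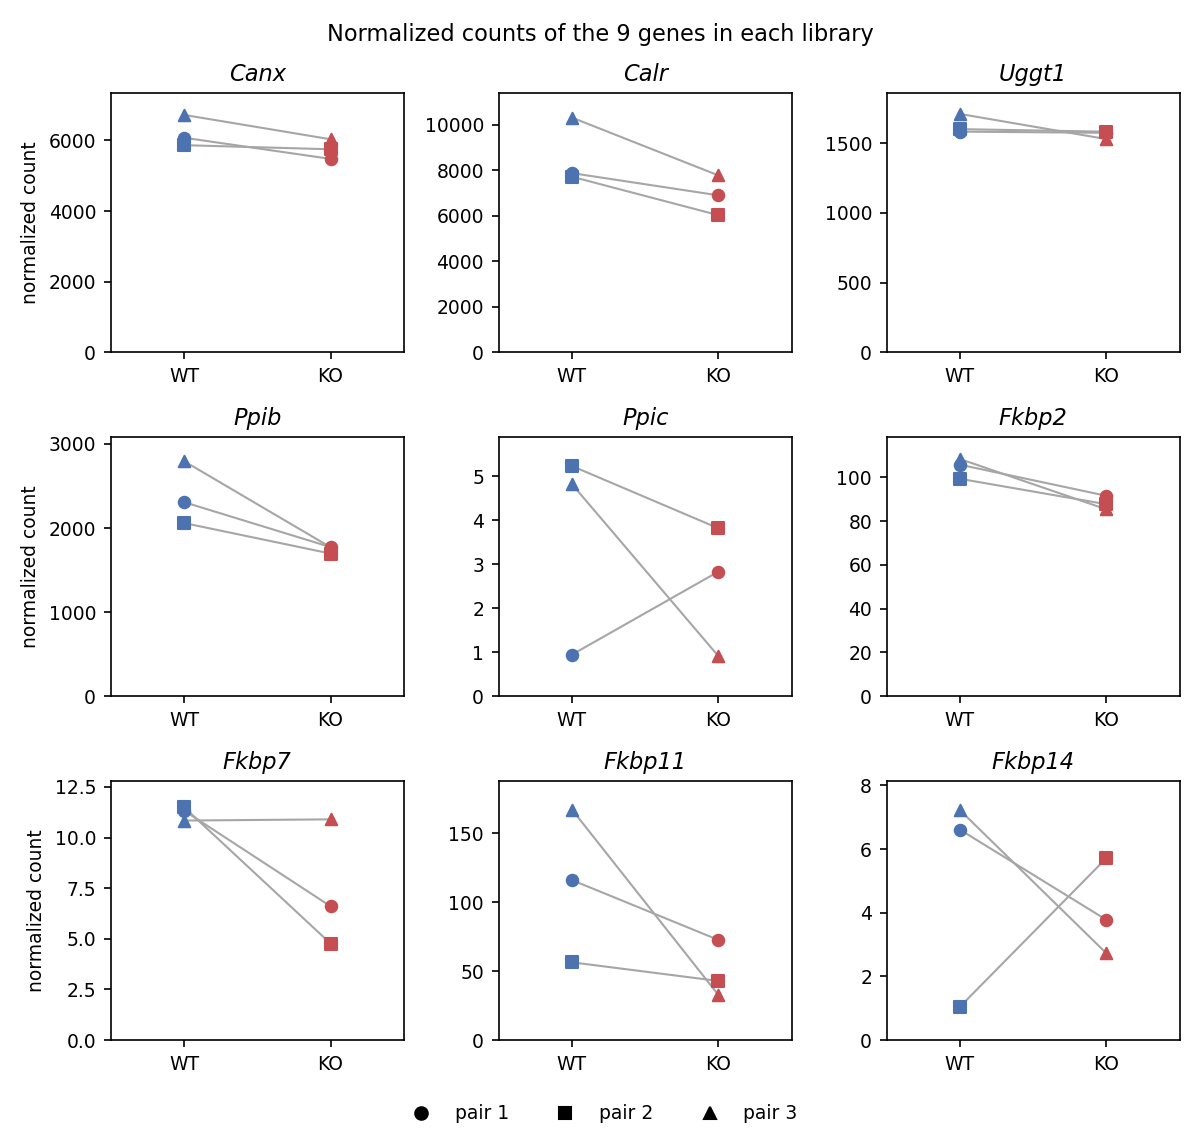
Normalized counts (vertical axes, from 0) of the 9 genes in each library, with WT libraries in blue, KO libraries in red, marker shapes for pairs 1 to 3 and grey lines joining littermates. *Canx*, *Calr*, *Uggt1*, *Ppib*, *Fkbp2* and *Fkbp11* lie lower in KO in every pair, while *Ppic*, *Fkbp7* and *Fkbp14* each lie higher in KO in 1 of 3 pairs.

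Of the 9 members, 6 passed the filter, and all 6 had means over 10 normalized counts in both groups. These 6 were lower in the library labelled KO in 3 of 3 pairs, and the other 3 in 2 of 3 pairs. At an unadjusted *p* under 0.05, 3 members were lower (*Ppib*, *Calr* and *Fkbp11*), against 3.03% of all genes tested. After adjustment in limma, 0 members and 0% of all genes were lower (smallest adjusted *p* 0.653, while before adjustment 373 genes were lower and 206 higher). edgeR called 0 genes too, with 368 lower and 200 higher before adjustment. DESeq2 called 1 member, *Ppib*, and 22 of the 9894 genes to which it gave an adjusted *p* (0.222%) were called lower. Every KO library was below every WT library in 3 members (*Ppib*, *Fkbp2* and *Uggt1*), against 3.44% of all genes tested.

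The median log2 fold change of the 6 tested members was −0.28, and that of all genes tested was 0.00067. In pairs 1, 2 and 3 the median of the 6 members was −0.20, −0.23 and −0.37 (mean −0.27, SD 0.09). The WT library of pair 3 had the highest level of each of these 6 genes among the 6 libraries, and without pair 3 the median was −0.23. The counting interval lay below 100% in 3 of 3 pairs for *Calr* and *Ppib*, in 2 for *Canx* and *Fkbp11*, in 1 for *Uggt1* and in 0 for *Fkbp2*. These intervals cover counting error only, and differences between libraries exceeded it. The share of all genes with such intervals was not computed. The limma estimates of the KO level were 84.6% of WT for *Fkbp2* and 92.6% for *Canx*, between those of *Calr* and *Uggt1*.

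**Figure D2:**
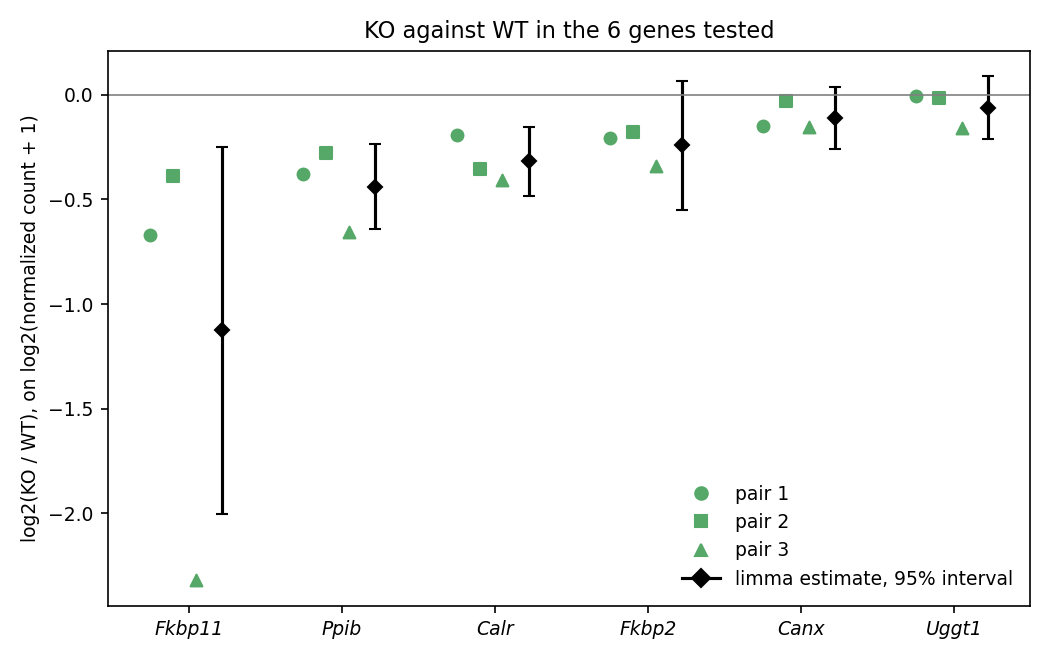
Log2 ratios of KO to WT on the log2(normalized count + 1) scale (vertical axis) for the 6 genes tested, with green symbols for pairs 1 to 3 and black diamonds for the limma estimate with its 95% interval. The intervals of *Fkbp11*, *Ppib* and *Calr* lie below 0, those of *Fkbp2*, *Canx* and *Uggt1* include 0, and the pair 3 value of *Fkbp11* (−2.32) stands apart from its other pairs.

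To compare genes with each other, levels were expressed as normalized counts per kilobase of exons, with the exons of all annotated transcripts of a gene merged. This length was 3305 bases for *Ppib* and 4693 for *Canx*, and it can exceed that of the mRNA expressed. The order of the genes therefore depends on it. *Calr* had the highest mean over the 6 libraries (2697, range 2093 to 3582), followed by *Canx* (1276, range 1167 to 1433), *Ppib* (626, range 513 to 846) and *Uggt1* (124, range 119 to 133). None of these 4 ranges overlapped the next in the order. *Fkbp2* followed with 58.7 (range 52.0 to 66.1) and *Fkbp11* with 30.1 (range 12.1 to 61.8). Their ranges overlapped, although *Fkbp2* was the higher in each of the 6 libraries. *Fkbp7* (6.28), *Ppic* (2.20) and *Fkbp14* (1.09) came last, with ranges that overlapped from one to the next. By this measure the 2 lectins stood at the top of the order in every library. *Calr* and *Canx* together gave 77.2% to 80.1% of the fragments of the 9 genes. Among the isomerases *Ppib* stood above all others. All 9 genes made up 0.243% to 0.336% of a library's fragments.

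**Figure D3:**
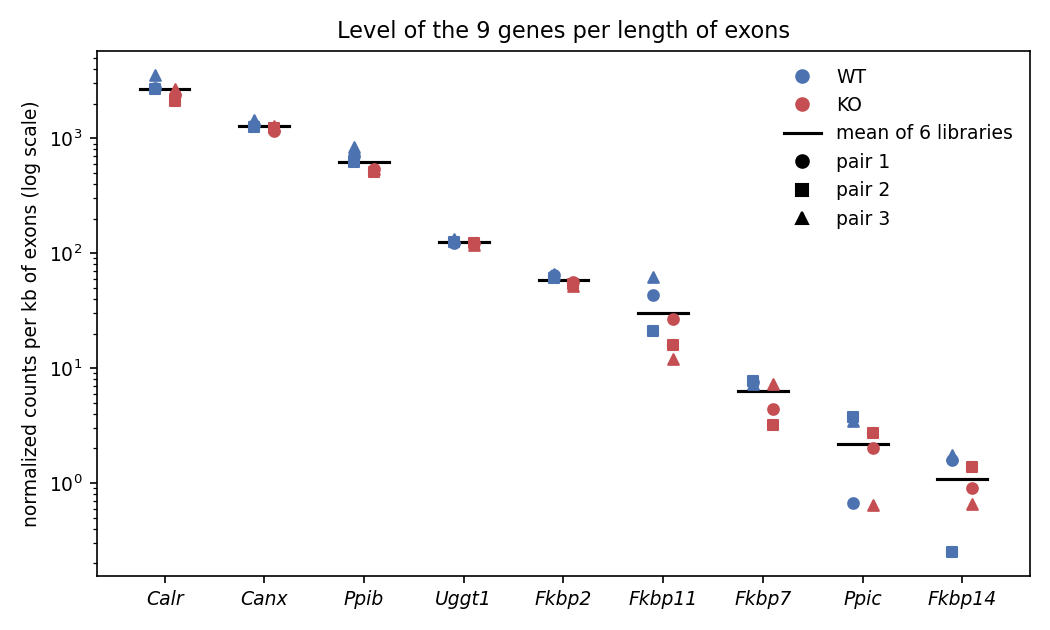
Normalized counts per kilobase of merged exons (vertical axis, log scale) of the 9 genes in the 6 libraries, ordered by their mean (black line). WT is in blue and KO in red, with marker shapes for the pairs. Levels fall from 2697 for *Calr* to 1.09 for *Fkbp14*, and the ranges of the first 4 genes do not overlap.

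Ratios within a library do not depend on the scaling between libraries. The size of a ratio depends on the exon lengths used, while its comparison between libraries does not. Per kilobase, *Calr* was 2.05, 1.71 and 2.10 times *Canx* in the libraries labelled KO, and 2.11, 2.14 and 2.50 times in those labelled WT. The soluble lectin was thus lower relative to the membrane-bound one in each KO library than in any WT library, although the groups were parted only by the gap between 2.10 and 2.11 (1.95 ± 0.21 against 2.25 ± 0.22, SD, n = 3). *Ppib* was 0.460, 0.419 and 0.417 times *Canx* in KO and 0.539, 0.499 and 0.590 times in WT, again without overlap. *Uggt1* relative to *Canx* overlapped (0.0993 ± 0.0063 against 0.0958 ± 0.0035, SD, n = 3) and was lower in KO in 1 of 3 pairs. The ratios of *Fkbp11* to *Ppib* and of *Fkbp11* to *Fkbp2* were each lower in KO in 3 of 3 pairs, with overlap between groups. *Calr* relative to *Hspa5*, the gene of the ER chaperone BIP, was lower in KO in 1 of 3 pairs (1.11 ± 0.11 against 1.06 ± 0.13, SD, n = 3). With 3 pairs the smallest *p* of an exact two-sided permutation test is 0.25, so these ratios were not tested. The share of other gene pairs whose ratios do not overlap between groups was not computed.

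*Ppia* encodes cyclophilin A, the abundant cyclophilin of the cytoplasm, and serves as a comparison for *Ppib* outside the ER. The authors' filter removed fragments with several mapping places, and *Ppia* has many pseudogene copies, so its level is uncertain. Its level was 4371, 5437 and 4387 normalized counts under the label KO and 4787, 4940 and 4530 under the label WT, with overlap between groups (log2 fold change −0.01, SE 0.07, adjusted *p* = 0.992 from limma). The ratio of *Ppib* to *Ppia* per kilobase was 0.431, 0.331 and 0.429 in KO and 0.512, 0.443 and 0.655 in WT, without overlap between groups. The groups of *Ppib* alone did not overlap either, so this ratio is no separate result.

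**Figure D4:**
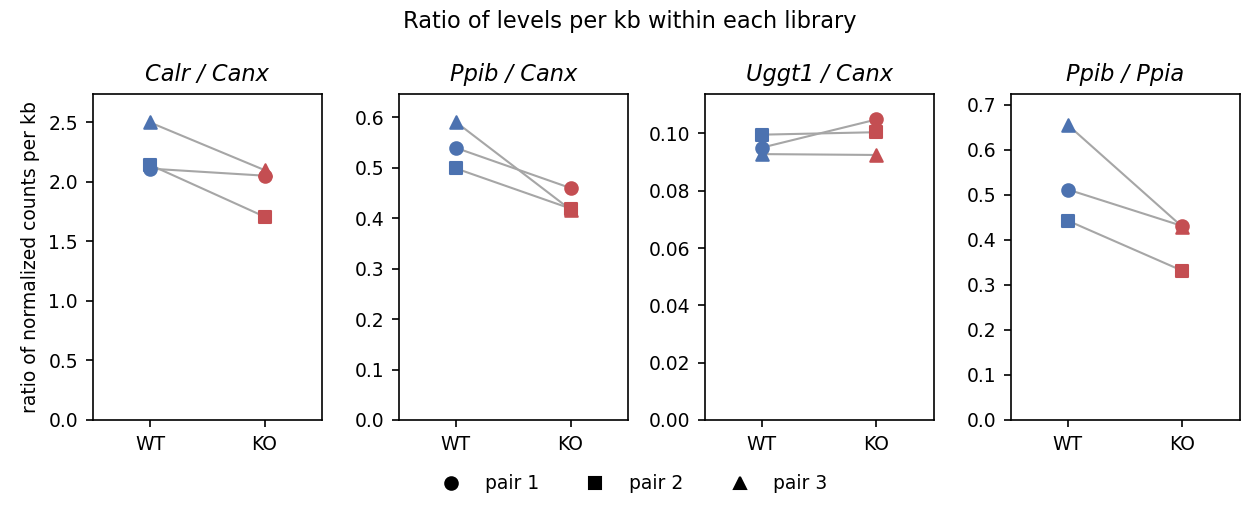
Ratios of levels per kilobase within each library (vertical axes, from 0), with WT in blue, KO in red, marker shapes for pairs 1 to 3 and lines joining littermates. *Calr* to *Canx*, *Ppib* to *Canx* and *Ppib* to *Ppia* are lower in each KO library than in any WT library, whereas *Uggt1* to *Canx* is not. The share of other gene pairs with such ratios was not computed.

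The other genes of the calnexin cycle were described as a list of 14 genes, of which 10 passed the filter. The log2 fold change was below 0 in 10 of these 10, against 49.8% of all genes tested, and 5 of them were lower in KO in every pair, against 13.1%. None passed 0.05 after adjustment in limma, edgeR or DESeq2, and 3 were lower at an unadjusted *p* under 0.05, against 3.03%. *Pdia3*, the disulfide isomerase that binds both lectins, had 2325 ± 250 normalized counts in KO and 2738 ± 563 in WT (SD, n = 3; log2 fold change −0.22, SE 0.08). *Prkcsh*, the beta subunit of glucosidase II, had 507 ± 36.5 against 576 ± 70.1 (log2 fold change −0.18, SE 0.07). *Edem2*, which acts in mannose trimming of chains bound for degradation, had 391 ± 73.9 against 528 ± 126 (log2 fold change −0.42, SE 0.13). For all 3 the values of the groups overlapped, and without pair 3 the log2 fold changes were −0.13 for *Pdia3*, −0.14 for *Prkcsh* and −0.23 for *Edem2*.

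Of the 5 genes of that list with means over 1000 normalized counts, 4 did not pass an unadjusted 0.05. *Ganab*, the catalytic subunit of glucosidase II, had a log2 fold change of −0.04 (SE 0.06) and *Selenof*, the partner of UGGT1, one of −0.14 (SE 0.08). *Mlec*, a lectin for glycans with 2 glucoses, was at −0.15 (SE 0.08), and at −0.06 without pair 3. Every KO library of *Mlec* was below every WT library, against 3.44% of all genes tested, but only by the gap between 2532 and 2536 normalized counts. *Edem1*, which acts in disposal of misfolded glycoproteins, was at −0.24 (SE 0.11). The list's median was −0.15, and −0.05 without pair 3. Of the remaining members, *Calr4*, a relative of *Calr*, was listed at 0 in all libraries, and *Uggt2*, *Clgn* and *Calr3* were below the filter. The letters of an ERSE were found in *Calr4* and those of the UPRE core in *Mogs* among the 13 genes with a window.

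Of 4 further ER prolyl isomerases and partners of cyclophilin B, 3 were tested and 0 of them were lower in every pair, against 13.1% of all genes tested. *P3h1* and *Crtap*, the partners of cyclophilin B in the modification of collagen, had log2 fold changes of −0.05 (SE 0.17) and 0.06 (SE 0.15). *Fkbp9* was at −0.14 (SE 0.41), with a mean of 10.7 normalized counts, and *Fkbp10* was listed at 0 in all libraries. Thus *Ppib* was lower in each KO library while the genes of its known partners were lower in 1 of 3 pairs each.

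Prolyl isomerases outside the ER numbered 27, of which 23 were tested. Their log2 fold changes were below 0 in 9 and above 0 in 14, with a median of 0.02 and a range from −0.16 to 0.19. None was lower in KO in every pair, against 13.1% of all genes tested, and 0 passed an unadjusted 0.05. In every pair 1 was higher (*Ppil1*, chosen after its values were seen, log2 fold change 0.07, SE 0.07). The share of all genes higher in every pair was not computed. The most abundant beside *Ppia* were *Fkbp8*, an FKBP of the outer mitochondrial membrane (1175 ± 57.3 in KO and 1218 ± 28.4 in WT), and *Nktr*, a large nuclear cyclophilin (1182 ± 183 and 1239 ± 12.4 normalized counts, SD, n = 3). The log2 fold changes of *Calr*, *Ppib*, *Fkbp2* and *Fkbp11* lay below this range. A difference between the lists was not tested.

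**Figure D5:**
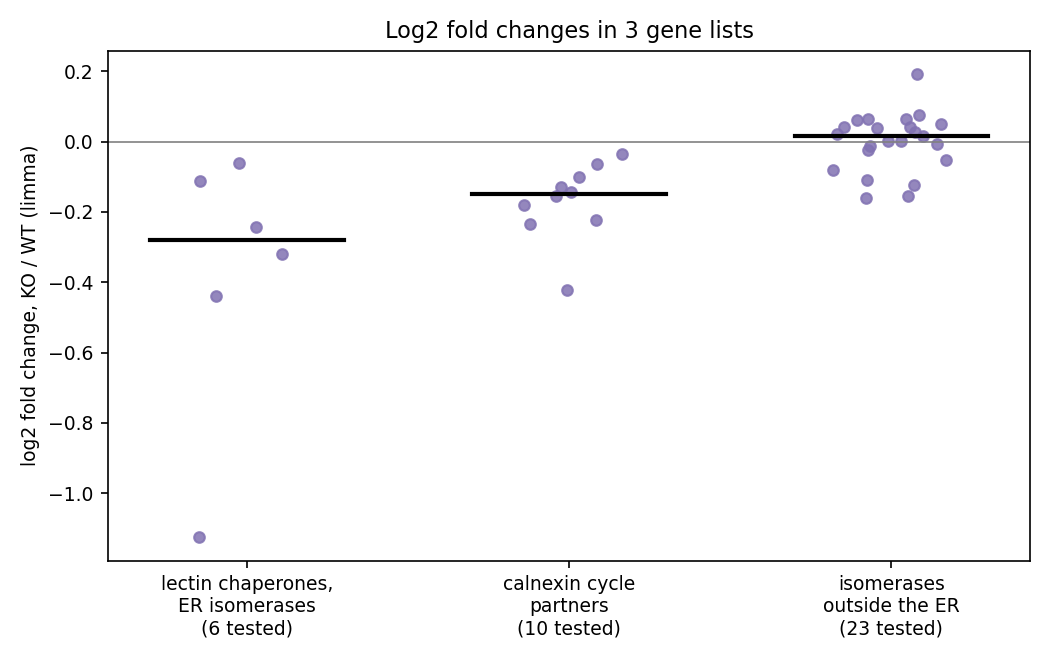
Log2 fold changes of KO against WT from limma (vertical axis) for the tested genes of 3 lists, 1 point per gene, with the median as a black line. The medians are −0.28 for the 6 members, −0.15 for the 10 calnexin cycle partners and 0.02 for the 23 isomerases outside the ER.

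Levels of plasmablast markers, Ig genes and the ER chaperone BIP were measured beside the members. The 8 plasmablast markers had summed levels of 12839 to 22166 normalized counts in the libraries labelled KO and 13440 to 26858 in those labelled WT, with log2 ratios of 0.33, −0.07 and −0.72 in pairs 1, 2 and 3. Of the 7 tested, *Mzb1* was lower at an unadjusted *p* of 0.0230 (log2 fold change −0.33, SE 0.11) and *Xbp1* was at 0.19 (SE 0.19). The marker below the filter was *Tnfrsf17* (mean 0.640 normalized counts). *Jchain* had a log2 fold change of −0.47 (SE 0.33), with KO levels of 133%, 84.4% and 33.6% of WT in pairs 1, 2 and 3. *Ell2* was at −0.14 (SE 0.09), *Irf4* at −0.01 (SE 0.12), *Sdc1* at −0.04 (SE 0.22) and *Prdm1* at 0.10 (SE 0.23). Of the 7 tested markers, 5 were thus below 0 and 2 above. *Igkc*, the kappa constant gene, was lower in KO in each pair, by log2 ratios of −0.49, −0.80 and −1.41 (log2 fold change −0.90, SE 0.16, adjusted *p* = 0.693 from limma). *Hspa5* had log2 ratios of −0.27, −0.32 and −0.58 (log2 fold change −0.39, SE 0.08, with an adjusted *p* of 0.693 in limma and of 0.0306 in DESeq2). The differences of *Igkc*, *Hspa5*, the summed plasmablast markers and *Ppib* were all largest in pair 3, and the part of cell composition in the members' values was not tested.

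The genes with a profile over the 6 libraries most like the mean profile of the 6 tested members were sought among 7902 other genes whose mean reached 100 normalized counts. The measure was the root mean square difference of log2 levels centred on each gene's mean, to which *Fkbp11*, the most variable member, contributed most. The closest were *Ctsd* (0.0327), *Ssr4* (0.0343), *Pdia6* (0.0350), *Kcnab2* (0.0409) and *Ppt1* (0.0463). *Ssr4* and *Pdia6* encode ER proteins, a subunit of the translocon-associated complex and a disulfide isomerase, while *Ctsd* and *Ppt1* encode lysosomal enzymes and *Kcnab2* a potassium channel subunit. Their log2 fold changes lay from −0.40 for *Ssr4* to −0.31 for *Kcnab2*, none of them past 0.05 after adjustment in limma. The mean profile of the members was lower in KO in each pair. Fold changes below 0 therefore follow from the way these genes were chosen and are no separate result.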

How the data were processed

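The authors trimmed reads with cutadapt, aligned them to GRCm38 with STAR 2.6.1a, counted properly paired fragments on exons by strand with featureCounts of Subread 1.6.3 (versions from the submitters' processing notes) with Gencode vM19. The values the authors deposited are these counts divided by DESeq2 size factors, a signal on a normalized count scale, and 0 other columns of single samples were left unused. The step of 1 fragment could be recovered in each library (100% of values whole within 0.01). Exon lengths and positions came from Gencode vM21, which matched 54409 of 54446 genes.

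Members and gene lists were chosen with earlier results of these data known. KO and WT were compared by limma 3.58.1 (R 4.3.3, eBayes with trend, two-sided) on log2(normalized count + 1) in 12322 genes (filter: mean of 10 or more), with the replicate number as a block and Benjamini-Hochberg adjustment over all of them. Littermates pair the samples, and deviations from group means correlated within pairs by 0.328, 0.685 and 0.170. Differences between libraries exceeded sampling noise (chi-square of at least 4.82 per gene over 15 pairs of libraries). edgeR 4.0.16 and DESeq2 1.42.0 on the recovered fragments, other pseudocounts, filters and scalings, a fit without the block and fits without each replicate were alternatives, and the code was tested on simulated data. Named genes were the 9 members, list genes with an unadjusted *p* under 0.05 or a mean of at least 1000, *Tent5c*, *Hspa5*, *Igkc* and the 5 closest profiles. Beside these, other genes of the lists are named to account for a short list, for genes at 0 or under the filter or for a motif, marker genes for the part they have in their list's sum, and *Ppil1* was chosen after its values were seen. Intervals from counting are exact Clopper-Pearson intervals at 95% and cover counting error only. The limit for a count of 0 is 3 fragments, or 2.72 to 3.61 normalized counts. Promoters and transcription starts came from RefSeq, for 8 of 9 members, as the chromosome of *Ppic* was left out.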

Additional observations from a re-analysis of the deposited data

How the results depend on the processing

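DESeq2 with the replicate block called 22 genes lower and 1 higher in KO, where limma called 0 and 0. Given genes with at least 1 fragment, an alternative chosen after seeing the data, it called 23 and 1 (*Ppib* adjusted *p* = 0.0420). With 1 replicate left out, limma called from 0 to 168 genes lower and from 0 to 3 higher, the most without replicate 1. Without the replicate block, limma called 0 genes, and the paired and unpaired limma fits did not differ in any call (*Ppib* adjusted *p* = 1.00 without the block). The median log2 fold change of the members lay from −0.32 to −0.25 over the alternatives (−0.32 with no filter, for 9 genes, and −0.25 with quantile normalization). Leaving out 1 replicate gave −0.32 to −0.23. The number of members lower in every pair was 6 in each alternative except quantile normalization, with 5. For single members, 81 values kept direction and side of the threshold, 7 from DESeq2 kept direction but had no adjusted *p* (*Ppic*, *Fkbp7* and *Fkbp14* in both DESeq2 fits, *Fkbp11* in the added one), 2 passed the threshold (*Ppib* in both DESeq2 fits) and none reversed. *Ppib* lay from −0.44 to −0.41 and, with 1 replicate left out, from −0.52 to −0.33. *Fkbp11* (−1.50 to −0.53) and *Uggt1* (−0.09 to −0.01) moved by over 1.5 times with 1 replicate left out, both nearest to 0 without replicate 3; the cause was not tested. Depth limits *Ppic*, *Fkbp7* and *Fkbp14*, which have at most 12 fragments per library.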
